A study of Mus musculus with 2 samples.

Results

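The pericentral Wnt target genes are a set of 9 genes that hepatocytes around the central vein express under Wnt/β-catenin signalling or together with it. Glul, Axin2, Lgr5, Tbx3, Rhbg, Rnf43, Znrf3, Cyp2e1 and Cyp1a2 were chosen by name, as known pericentral or β-catenin target genes; no measured value entered the rule, though earlier results of these data were known when it was written. The array table gave a value for all 9, out of 22180 genes with a probe set of their own. Liver RNA of male mice was compared between E4bp4-LKO and wild-type (WT) mice, both fed a high-fat diet for 12 weeks from 2 months of age. E4BP4, encoded by Nfil3, is a basic leucine zipper repressor, and the series title describes the E4bp4-LKO mice as deficient in it. Each genotype was a single whole-transcript array hybridised with RNA pooled from several mice. The number of mice per pool, the hour of collection, the promoter that drove any recombinase and the alleles of the WT mice are unstated in the labels.

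In the liver lobule, Wnt ligands and R-spondins made by endothelial cells of the central vein act on neighbouring hepatocytes. They stabilise β-catenin, which with TCF/LEF factors turns on a pericentral programme of glutamine synthesis, ammonium transport and cytochrome P450 metabolism. The programme includes its own regulators: AXIN2 and the ubiquitin ligases RNF43 and ZNRF3 dampen the pathway, and the R-spondin receptor LGR5 holds those ligases back. Periportal hepatocytes, at the other end of the lobule, carry urea synthesis and gluconeogenesis.

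The promoters of 3 members are shown because β-catenin acts through TCF/LEF elements: Axin2 as the usual readout of the pathway, and the P450 genes because their windows hold a TCF/LEF core. Promoters of 5 members were in the RefSeq set used here (assembly GRCm38.p6, 250 bases before to 50 after a transcript start), 6 promoters in all since Rnf43 had 2. Axin2 lies at chr11:108920099-108920398 on the plus strand, Cyp2e1 at chr7:140763569-140763868 on the plus strand and Cyp1a2 at chr9:57683606-57683905 on the minus strand. Capitals mark a match to a TCF/LEF core (AACAAAG or ATCAAAG or TACAAAG or TTCAAAG, on either strand), and each sequence runs 5′ to 3′ along its gene.
Axin2: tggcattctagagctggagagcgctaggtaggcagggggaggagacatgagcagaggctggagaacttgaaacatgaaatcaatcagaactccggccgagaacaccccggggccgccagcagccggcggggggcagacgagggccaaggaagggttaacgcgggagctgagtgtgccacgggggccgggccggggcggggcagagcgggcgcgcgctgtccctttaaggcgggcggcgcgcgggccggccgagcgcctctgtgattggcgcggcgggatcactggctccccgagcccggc
Cyp2e1: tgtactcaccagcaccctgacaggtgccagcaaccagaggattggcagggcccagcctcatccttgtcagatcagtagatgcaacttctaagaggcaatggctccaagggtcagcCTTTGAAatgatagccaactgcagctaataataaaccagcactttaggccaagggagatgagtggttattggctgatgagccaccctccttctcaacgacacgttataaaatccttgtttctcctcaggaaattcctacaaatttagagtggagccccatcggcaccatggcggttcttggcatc
Cyp1a2: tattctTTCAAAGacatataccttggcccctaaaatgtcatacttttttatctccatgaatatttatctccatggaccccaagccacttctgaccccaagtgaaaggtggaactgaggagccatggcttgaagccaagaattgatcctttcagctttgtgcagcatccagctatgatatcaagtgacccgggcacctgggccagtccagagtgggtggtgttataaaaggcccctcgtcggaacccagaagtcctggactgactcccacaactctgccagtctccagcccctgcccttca

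The Cyp2e1 promoter held 1 such core, starting 135 bases upstream of the transcript start and read on the opposite strand. The Cyp1a2 promoter held 1 on the gene's own strand, starting 244 bases upstream. The windows of Axin2, Glul and Rnf43 held none, so 2 of the 6 member promoters had a match. Of all 32851 promoters of the same length, 16.9% had one. The letters TTATGTAA or TTACGTAA, the element that E4BP4 and the PAR bZIP activators recognise, were in none of the 6 windows on either strand and in 1.06% of all promoters. A match describes letters in a window and does not show a binding site.

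All values are RMA log2 intensities, and differences are E4bp4-LKO minus WT on that scale. With 1 array per genotype there is no replicate error, no test is possible, and the number of arrays limits the precision. A floor for dim genes was set at the median gene, 4.20, and 11090 genes lay above it, all 9 members included. As a yardstick of measurement, 555 genes above the floor have 2 probe sets each and had a standard deviation of 0.22 between the differences of a gene's probe sets. In this bulk RNA fewer cells of a type and less RNA per cell cannot be told apart. The targeted gene Nfil3 was at 4.47 in the E4bp4-LKO pool, against 5.94 in the WT pool, a difference of -1.47. Hepatocyte markers fitted the tissue label on both arrays, with albumin (Alb) at 12.77 on each.

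None of the 9 pericentral Wnt target genes was 1.5-fold higher or lower on the E4bp4-LKO array, and 3.57% of all genes above the floor differed by that much. Their differences ran from -0.27 for Cyp1a2 to 0.15 for Lgr5, with a median of -0.07. The genes above the floor as a whole had a median of -0.02. Of the members, 6 were lower and 3 higher on the E4bp4-LKO array, and 54.5% of all genes above the floor were lower. At the smaller threshold of 1.2-fold, Cyp1a2 was the one member past it, 1 of 9, beside 23.3% of all genes. The median size of a difference, without its sign, was 0.15 among the members and 0.14 among all genes above the floor. For 8 of the 9 members the difference was smaller than the standard deviation of 0.22 between the probe sets of a gene.

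**Figure D1:**
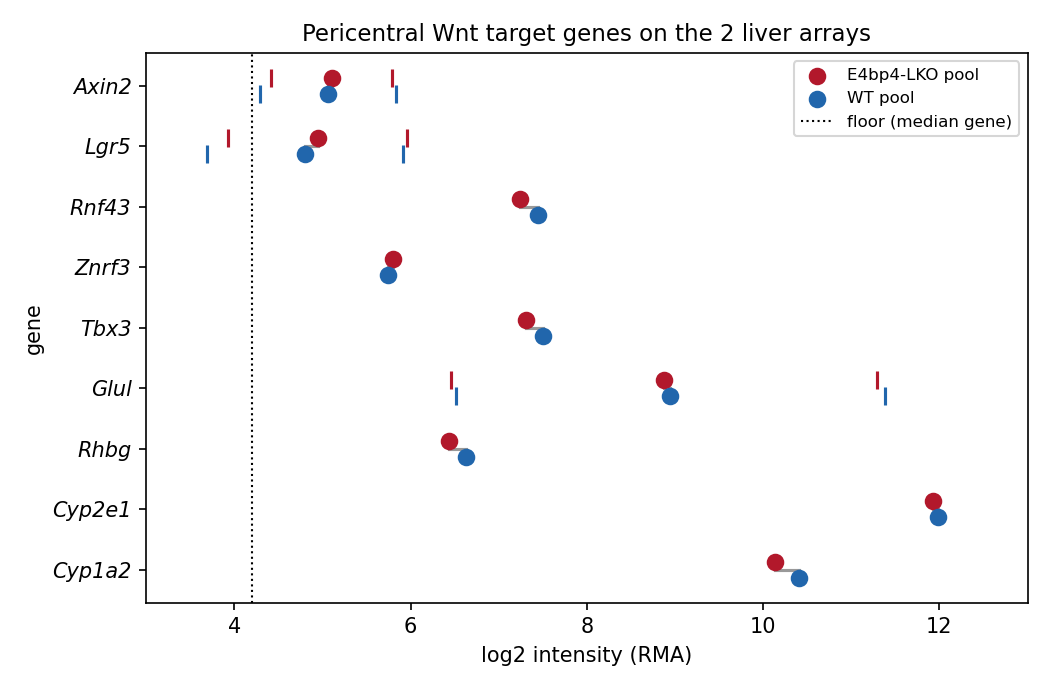
Log2 intensity (x axis) of each pericentral Wnt target gene (rows) on the E4bp4-LKO array (red, upper point) and the WT array (blue, lower point), 1 array of pooled RNA each. Vertical ticks are the separate probe sets of the 3 genes that have 2, and the dotted line is the floor of 4.20; the widest pair of points is that of Cyp1a2, with a difference of -0.27. Levels of different genes come from different probes and are not comparable.

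The 4 regulators that sit within the pathway differed little and in both directions. Axin2, the scaffold of the β-catenin destruction complex and the most widely used readout of the pathway, was at 5.11 in the E4bp4-LKO pool, against 5.07 in the WT pool, a difference of 0.04. Its 2 probe sets pointed opposite ways. The brighter one was at 5.79 in E4bp4-LKO and 5.84 in WT liver (-0.05), and the dimmer one at 4.42 in E4bp4-LKO and 4.30 in WT liver (0.12). The gap of 0.17 between them is larger than either difference, so the array gives no direction for Axin2.

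Lgr5, the R-spondin receptor that marks hepatocytes next to the central vein, was at 4.95 in E4bp4-LKO and 4.80 in WT liver, a difference of 0.15. This was the highest difference among the members, and it came mostly from the dimmer of its 2 probe sets. That probe set was at 3.93 in E4bp4-LKO and 3.69 in WT liver, below the floor on both arrays. The brighter probe set was at 5.96 in E4bp4-LKO and 5.91 in WT liver, a difference of 0.05.

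Znrf3 and Rnf43 encode paired membrane ubiquitin ligases that remove Frizzled receptors from the cell surface, and they stood on opposite sides of 0. Znrf3 was at 5.80 in the E4bp4-LKO pool, against 5.74 in the WT pool, a difference of 0.06. Rnf43 was at 7.24 in the E4bp4-LKO pool, against 7.44 in the WT pool. Its difference of -0.20, or 1.15-fold lower, was the largest of the 4 regulators.

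Tbx3, a T-box repressor that is a direct β-catenin target in pericentral hepatocytes, was at 7.31 in E4bp4-LKO and 7.50 in WT liver. The difference was -0.19, or 1.14-fold lower, close to that of Rnf43. Both genes rest on a single probe set.

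Both nitrogen genes had a lower value in the E4bp4-LKO pool. Glul encodes glutamine synthetase, which captures ammonia in the innermost hepatocytes around the vein and is the classical marker of Wnt-active cells. Averaged over its probe sets, Glul was at 8.88 in E4bp4-LKO and 8.95 in WT liver, a difference of -0.07 (1.05-fold lower). Its bright probe set was at 11.30 in E4bp4-LKO and 11.38 in WT liver, and the dimmer one at 6.46 in E4bp4-LKO and 6.52 in WT liver. With differences of -0.08 and -0.06, these probe sets were the most alike of the 3 pairs, 0.03 apart.

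Rhbg, an ammonium transporter of the same perivenous cells, was at 6.43 in E4bp4-LKO and 6.63 in WT liver. This difference of -0.20 (1.15-fold lower) comes from the only probe set annotated to Rhbg alone. A second probe set, annotated to both Rhbg and the gene Tsacc, was at 4.87 in E4bp4-LKO and 4.63 in WT liver, a difference of 0.24. When it was averaged in, the difference of Rhbg was 0.02, so its direction depends on whether shared probe sets are used.

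Both P450 genes were also lower in the E4bp4-LKO pool, by unequal amounts. Cyp2e1, the ethanol- and fatty-acid-oxidising P450 of the pericentral zone, was at 11.93 in the E4bp4-LKO pool, against 11.99 in the WT pool. Its difference of -0.06 is 1.04-fold. Cyp1a2, which metabolises caffeine and aromatic amines and is also a target of the aryl hydrocarbon receptor, was at 10.14 in the E4bp4-LKO pool, against 10.41 in the WT pool. At -0.27, or 1.21-fold lower, it was the member farthest from 0 and the one beyond the probe-set yardstick. The 2 genes therefore ended on opposite sides of the median size of a difference among all genes above the floor, 0.14.

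Dim and bright genes of the array were set apart to see whether the members' level mattered. Among the 4843 genes between the floor and 6, the median size of a difference was 0.16 and 4.52% were past 1.5-fold; Axin2, Lgr5 and Znrf3 lie there, between 0.04 and 0.15. Among the 5275 genes from 6 to 9, these values were 0.13 and 2.77%, and Rnf43, Tbx3, Rhbg and Glul lie there, between -0.20 and -0.07. Among the 972 genes above 9, they were 0.11 and 3.19%, with Cyp1a2 at -0.27 and Cyp2e1 at -0.06. By averaged values, the 3 members that were higher thus all lie in the lowest signal range, and the 6 that were lower in the ranges above it. Axin2 is among those 3, although its brighter probe set, at a mean level of 5.82, was lower (-0.05). This split by level therefore depends on the averaging for Axin2. The level of Glul is the average of probe sets at 11.34 and 6.49, so its range depends on the averaging too. Both of its probe sets were lower and lie above 6. Removing a smooth trend of the difference on level left all 9 signs as they were.

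**Figure D2:**
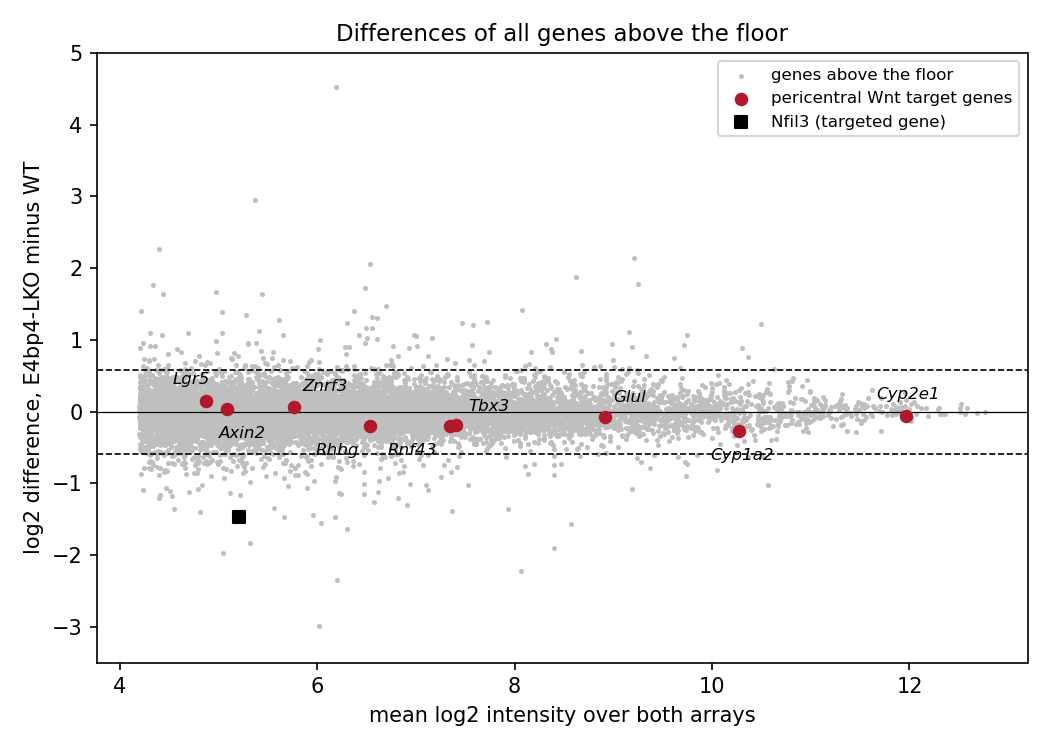
Log2 difference, E4bp4-LKO minus WT (y axis), against the mean log2 intensity of both arrays (x axis) for the 11090 genes above the floor (grey), with the 9 pericentral Wnt target genes in red and Nfil3 as a black square. Dashed lines mark 1.5-fold; the members lie between -0.27 and 0.15, inside the lines, while Nfil3 is at -1.47.

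Upstream of the members, most of the ligand genes were faint. Of 25 genes for Wnt ligands, R-spondins and their secretion, 8 lay above the floor, none past 1.5-fold in either direction, with a median of 0.11. Among these 8, 1 was lower and 7 were higher, while 54.5% of all genes above the floor were lower. Rspo3, the R-spondin of central vein endothelium, was at 6.52 in E4bp4-LKO and 6.44 in WT liver (0.08). Wnt2 was at 5.07 in E4bp4-LKO and 4.83 in WT liver (0.24), and Wnt9b at 4.51 in E4bp4-LKO and 4.36 in WT liver (0.16). WNT2 and WNT9B are the endothelial Wnts known from mouse liver, and all 3 of these genes were higher on the E4bp4-LKO array by less than 1.2-fold. Wnt5b (0.43) was the ligand farthest from 0, with a WT value of 4.01, below the floor. Porcn, which lipidates Wnt proteins for secretion, differed by 0.14.

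Of the markers of sinusoidal and central vein endothelium, 7 of 9 were lower in the E4bp4-LKO pool, beside 54.5% of all genes above the floor. Their median was -0.27 and none was past 1.5-fold. Lyve1 (-0.52), Cdh13 (-0.45), Oit3 (-0.32), Cdh5 (-0.31) and Pecam1 (-0.27) were farthest from 0. The part of endothelial content in the ligand values was not tested.

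Among 17 receptor genes, 11 lay above the floor and none was past 1.5-fold (median -0.03). The co-receptors Lrp5 and Lrp6 differed by 0.05 and -0.03, and Lgr4, the R-spondin receptor that hepatocytes share with Lgr5, was at 8.07 in E4bp4-LKO and 7.98 in WT liver (0.09). Among the receptor genes above the floor, the Frizzled genes Fzd4 (-0.40), Fzd1 (-0.25) and Fzd5 (-0.14) were farthest from 0, and the Wnt receptor gene Ryk differed by -0.09.

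The intracellular and nuclear components were close to WT as well. Of 21 measured genes 19 lay above the floor, 14 of them lower and 5 higher, where 54.5% of all genes above the floor were lower. Their median was -0.09 and none was past 1.5-fold. Ctnnb1, which encodes β-catenin itself, was at 8.45 in the E4bp4-LKO pool, against 8.59 in the WT pool (-0.14). Tcf7l2, the main TCF factor of hepatocytes, was at 6.62 on both. Among those above the floor Bcl9, a β-catenin coactivator, differed most (-0.53), and next came Apc (-0.22) and Gsk3b (-0.19) of the destruction complex, the repressor Tcf7l1 (-0.21) and Dvl2 (0.20), which relays the receptor signal. RNA levels do not report the stability of β-catenin protein, which is how the pathway is switched.

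Of the secreted and membrane inhibitors, 4 of 13 lay above the floor: Dkk3 (-0.38), Frzb (-0.27), Kremen1 (-0.22) and Sfrp1 (0.02). None was past 1.5-fold, and their median was -0.25. Over all 13, dim genes included, the median was 0.055.

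Other β-catenin targets were measured for 12 of 13 genes, and 7 lay above the floor. One of these 7, Ccnd1, was at least 1.5-fold lower, beside 2.06% of all genes, and none was higher by as much, beside 1.51%. Ccnd1, the G1 cyclin D1, was at 6.94 in the E4bp4-LKO pool, against 7.78 in the WT pool (-0.85). Myc, another growth gene, was at 5.92 in E4bp4-LKO and 6.31 in WT liver (-0.39). The feedback antagonist Nkd1 (-0.14), the receptor gene Tnfrsf19 (-0.11) and Ccn2 (-0.08) were nearer to 0, and the list's median was -0.11. Ccnd1 and Myc are targets of many growth signals besides Wnt, and Nkd1, like Axin2, is a feedback gene of the pathway. What lies behind the differences of these genes was not tested.

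**Figure D3:**
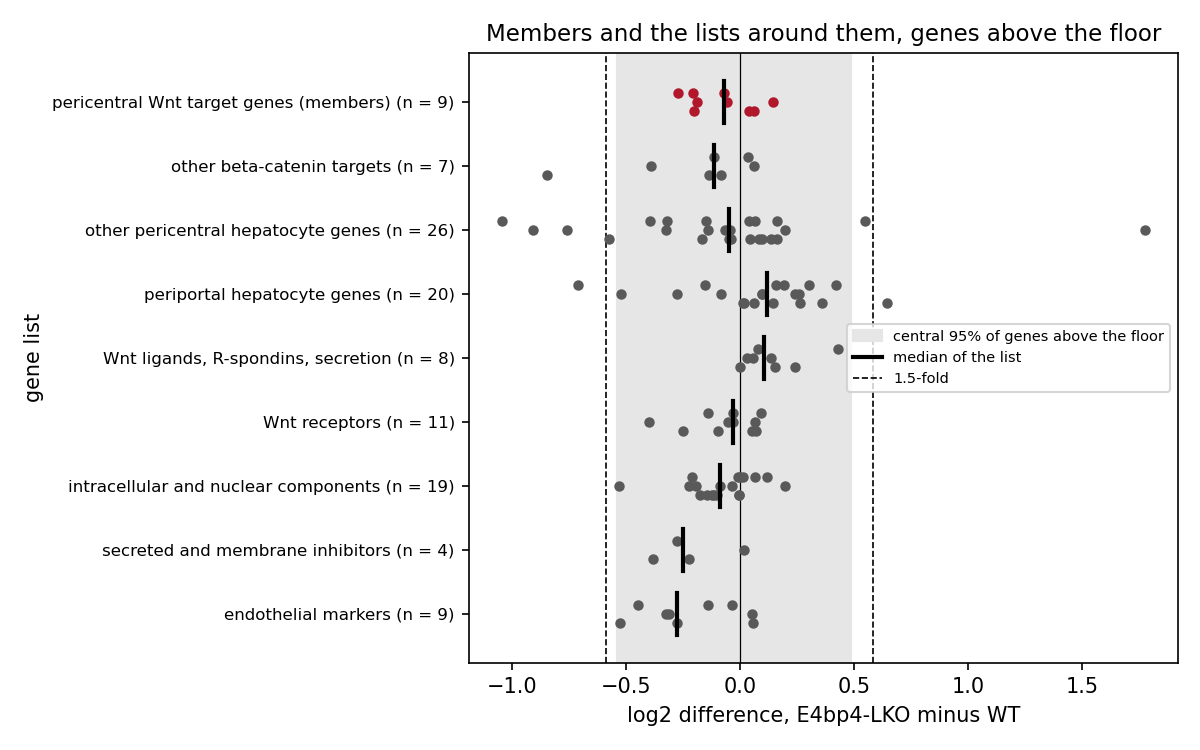
Log2 difference, E4bp4-LKO minus WT (x axis), of single genes above the floor (points) in the 9 pericentral Wnt target genes (red) and 8 related gene lists (grey), with n per list; black bars are medians, dashed lines 1.5-fold and the grey band the central 95% of all genes above the floor (-0.54 to 0.49). The 9 members lie between -0.27 and 0.15, and the 26 other pericentral genes between -1.04 and 1.78.

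Other pericentral hepatocyte genes ran from -1.04 to 1.78, a wider range than that of the 9 members, over more genes. Of 28 measured genes 26 lay above the floor, 15 lower and 11 higher, where 54.5% of all genes above the floor were lower. Their median was -0.05. At least 1.5-fold lower were 3 of the 26 (2.06% of all genes), namely Cyp2a5 (-1.04), the glutathione transferase gene Gstm3 (-0.90) and the ecto-nucleotidase gene Nt5e (-0.76). At least 1.5-fold higher was 1 (1.51% of all genes), the P450 gene Cyp2c54 (1.78), and Gstm1 (-0.57) was just inside the threshold. Cyp2a5, Cyp2c54, Gstm3 and Gstm1 belong to families of near-identical paralogs whose probes may share signal, so their single values are uncertain.

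The partners of Glul in perivenous glutamate handling also differed by small amounts. Oat, ornithine aminotransferase, was at 10.80 in E4bp4-LKO and 10.97 in WT liver (-0.17), and Slc1a2, a glutamate importer of the same cells, at 6.92 in E4bp4-LKO and 6.97 in WT liver (-0.05). Both are established β-catenin targets in the liver, and neither was past 1.2-fold.

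Around Cyp1a2, the receptor gene Ahr was at 8.32 in the E4bp4-LKO pool, against 8.15 in the WT pool (0.16). Cyp1a1, the most inducible target of that receptor, was at 3.15 in E4bp4-LKO and 3.55 in WT liver (-0.40), below the floor on both arrays. Of the 6 measured receptor targets and partners, Nqo1 (-0.14) and Arnt (-0.09) lay above the floor, and neither was past 1.5-fold.

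Of the periportal hepatocyte genes, the opposite zone, 15 of 20 were higher and 5 lower in the E4bp4-LKO pool, where 54.5% of all genes above the floor were lower. Their median was 0.12, while the median of the 9 members was -0.07. At least 1.5-fold higher was 1 of the 20, Ass1 (0.65), beside 1.51% of all genes, and at least 1.5-fold lower was 1, Hsd17b6 (-0.71), beside 2.06%. Ass1 rests on 1 dim probe set, at 5.59 in E4bp4-LKO and 4.95 in WT liver. Its level lies between the floor and 6, where 4.52% of genes were past 1.5-fold in either direction. Whether this probe set reports Ass1 RNA well was not tested. Cps1, the ammonia-capturing enzyme of the urea cycle, was at 11.78 in E4bp4-LKO and 11.47 in WT liver (0.30), and Glul, which captures ammonia at the other end of the lobule, differed by -0.07. The gluconeogenic G6pc (0.42) and the lyase gene Etnppl (0.36) were also higher, and Aldh1b1 (-0.52) lower, all within 1.5-fold. Whether the 2 zones differ beyond the variation between mice was not tested, since each genotype has 1 array.

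Some markers of other liver cells and of other tissue also differed between the pools. Skeletal muscle markers were lower in the E4bp4-LKO pool, 5 of 5, and 4 of them were above the floor and past 1.5-fold: Myh2 (-1.83), Atp2a1 (-1.47), Acta1 (-0.91) and Tnnt3 (-0.86). All 6 stellate cell markers were lower too (median -0.57), and 2 of the 6 were past 1.5-fold, the collagen genes Col3a1 (-1.15) and Col1a1 (-1.01). Of all genes above the floor, 54.5% were lower and 2.06% were at least 1.5-fold lower. The squamous epithelium genes Krt4, Krt13 and Krtdap had differences between 1.76 and 2.95, of uncertain size because their WT values lay below the floor, and Sprr1a was lower (-2.22). Of 5 Kupffer cell and macrophage markers 3 were higher and 2 lower (median 0.17). Of the 2 cholangiocyte markers above the floor 1 was higher and 1 lower. Markers of hepatocytes, the cells in which the 9 members are chiefly expressed, had a median of 0.08 over 5 genes. The part of other cells and tissue in the members' small differences was not tested.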

How the data were processed

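Liver RNA pools of E4bp4-LKO and WT mice were measured on 1 Affymetrix array each. The authors deposited 1 log2 intensity per probe set and array, and the submitters' processing notes name RMA and R 3.4.0. RMA corrects background, equalises the arrays by quantiles and summarises probes. Values ran from 1.18 to 12.82 on the E4bp4-LKO array and from 1.25 to 12.78 on the WT array, with no gene-wise centring visible. Detection calls were not used here.

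Of 41345 probe sets, 23521 carried 1 gene symbol in the platform annotation, 1814 several and 16010 none. Probe sets with 1 symbol were averaged per gene (Python 3.11.15, pandas 2.3.3), and 9 of 9 members matched RefSeq by gene identifier. The list symbol Ctgf was read as Ccn2. The procedure was tested on simulated data with known folds. These were larger than any fold among the members and were set in genes well above the floor, so differences of the members' size were not tested. The members and lists were chosen with earlier results of these data known. Named are the members, Nfil3 and a set of pathway genes. Per list other than the cell and tissue markers, the 5 genes above the floor with the largest absolute difference and every gene past 1.5-fold are named. Of those markers, every gene above the floor and past 1.5-fold is named, and some others. Genes of the lists without a probe set of their own, Gls2 among them, were not analysed here. Alternatives changed the centring, level trend (statsmodels 0.14.6), probe sets, floor and fold threshold.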

Additional observations from a re-analysis of the deposited data

How the results depend on the processing

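With 1 array per genotype no sample can be left out, and all values describe these 2 arrays. No paired analysis was possible because each genotype has a single array. Across 97 recomputed values, 94 stayed within the probe-set standard deviation of 0.22, or within 1.5 times for counts, and 3 did not. That tolerance is wider than the differences of 8 of the 9 members, so a turned sign can fall within it, as for Axin2 and Rhbg. Many of the values could hardly move. Centring took the same median of -0.02 from every difference, and the brightest probe set leaves the 6 members with 1 probe set unchanged. No member passed 1.5-fold under any of the alternatives run. With the main values none passed 2-fold, and 1, Cyp1a2, passed 1.2-fold. Centred on the median of the genes above the floor, Cyp1a2 was at -0.25, less than 1.2-fold. The members' median was between -0.19 and -0.05; the lowest value came with the floor at the 75th percentile, which leaves 6 of the 9. With that floor the median of the other β-catenin targets was -0.85, since Ccnd1 is then the only one left, and the median of the receptors turned to 0.01. Without a floor the median of the secreted and membrane inhibitors turned to 0.055; dim genes enter it. Axin2 turned to -0.05 with its brightest probe set only, and Rhbg to 0.02 with shared probe sets. Below the floor lay 17 of the 25 ligand-list genes, 9 of the 13 inhibitor genes and the dimmer probe set of Lgr5. No detection limit was computed.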
